A study of Mus musculus with 6 samples.

Results

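Histones and the proteins that write, erase, read or move them were examined in lymphatic endothelial cells of the mouse meninges, the membranes around the brain. Members were chosen by gene symbol: the canonical and variant histones, the Kdm, Kmt, Setd, Ezh, Kat, Hdac, Sirt, Dnmt, Tet, Smarc, Chd, Arid, Ino80, Brd, Cbx, Phf, Ncoa and Ncor families, and Ep300, Ep400 and Crebbp. The rule took 77 of the 4233 genes listed in the deposited table. The annotation holds 291 genes whose names match the rule, of which 260 are protein-coding, and genes that are not among the 4233 were not analysed here.

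Libraries from hemizygous 5xFAD mice were set against libraries from non-transgenic littermates (WT), with 3 in each genotype. All mice were C57BL/6J males aged 6 months, and each library pooled the cells of 10 mice. Cells had been sorted as single events that lacked DAPI and CD45 and carried CD31 and podoplanin (PDPN). The 5xFAD transgenes are driven by the neuronal Thy1 promoter, so the sorted endothelial cells were not the cells in which the transgenes are designed to be expressed. Because the samples are bulk RNA, fewer cells of a type and less RNA per cell cannot be told apart.

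DNA in the nucleus is wound around histone cores, and linker histone H1 sits where the DNA enters and leaves each core. Acetyltransferases and methyltransferases add marks to histone tails, deacetylases and demethylases remove them, reader proteins bind them, and ATP-driven remodelers slide or evict the cores. In lymphatic endothelium, as in other differentiated cells, these proteins act with lineage factors such as Prox1 to keep a gene programme open or closed.

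Values are normalised read counts, that is reads divided by 1 factor per library, and fold changes are 5xFAD over WT on the log2(value + 1) scale. Recovered reads over the listed genes were 13255050, 7960827 and 8573669 in the 5xFAD libraries, against 11366768, 10263689 and 11934686 in the WT libraries. Listed genes without reads numbered 87, 86 and 147 in the 5xFAD libraries, against 26, 25 and 42 in the WT libraries. All 10 lymphatic endothelial markers were listed, with summed values of 376579, 249283 and 368774 in 5xFAD and 297575, 277149 and 322577 in WT. Of the 10 blood endothelial markers 7 were listed, with sums of 28197 to 45016 in 5xFAD and 21173 to 38219 in WT, and Sox17 was at 0 in all 5xFAD libraries. Fibroblast markers (4 of 10 listed) summed to 23234 to 26444 in 5xFAD and 21810 to 40158 in WT. Leukocyte markers (2 of 10 listed) summed to 8187 to 11371 in 5xFAD and 8429 to 11862 in WT. Nearly all of the leukocyte sum was Mrc1, at 8105 to 11310 in 5xFAD and 8243 to 11829 in WT. The other, Cx3cr1, was at 60.8 to 82.3 in 5xFAD and 32.9 to 186 in WT. Mural markers (3 of 8 listed) summed to 2420 to 4410 in 5xFAD and 1939 to 6478 in WT. The 1 listed erythroid marker ranged from 242 to 3526 in 5xFAD and from 1362 to 2211 in WT. The part of these other cell types in the differences below was not tested. Every listed gene stayed under an SD of 2 on the log2(reads + 1) scale among the 3 libraries of its genotype. Over all 6 libraries 328 listed genes reached 2, and 6 of them were members (Hist1h1e, Kdm1b, Phf8, Phf10, Phf11c and Phf14). The sources used here state no such limit. A table held to a limit within genotypes keeps replicates close by construction, which bears on every p below.

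The genotypes differed at few of the 77 genes, and every difference that passed the test was a lower level in 5xFAD. The linker histone gene Hist1h1e, the demethylase gene Kdm1b and the PHD finger genes Phf14 and Phf8 were lower in 5xFAD, which is 4 of 77 members or 5.19%, where 4.48% of all 4152 genes tested were called lower (limma, Benjamini-Hochberg adjusted p under 0.05). Of these 4, Hist1h1e and Kdm1b reached the filter of a mean of at least 10 through the WT libraries only. No member was called higher, where 1.88% of all genes tested were. At an unadjusted p under 0.05 there were 13 members, or 16.9%, against 16.3% of all genes tested. Of these 13, Arid1a, Phf10 and Ncoa2 had positive fold changes and 10 had negative ones. DESeq2 called the same 4 members lower and 0 higher, where it called 6.36% of all genes tested lower and 3.93% higher, whereas edgeR called Arid1a higher and left Phf8 uncalled. The counts of members called are close to the share over all genes tested.

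The members were balanced in direction. There were 41 positive and 36 negative log2 fold changes with a median of 0.07, beside a median of -0.02 over all genes tested. With libraries scaled to the same total, 37 were positive and the median was -0.05, beside -0.14 over all genes. Together the members held 2.12, 2.14 and 2.59% of the listed values in the 5xFAD libraries and 2.06, 1.88 and 2.15% in the WT libraries, so the ranges overlapped.

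**Figure D1:**
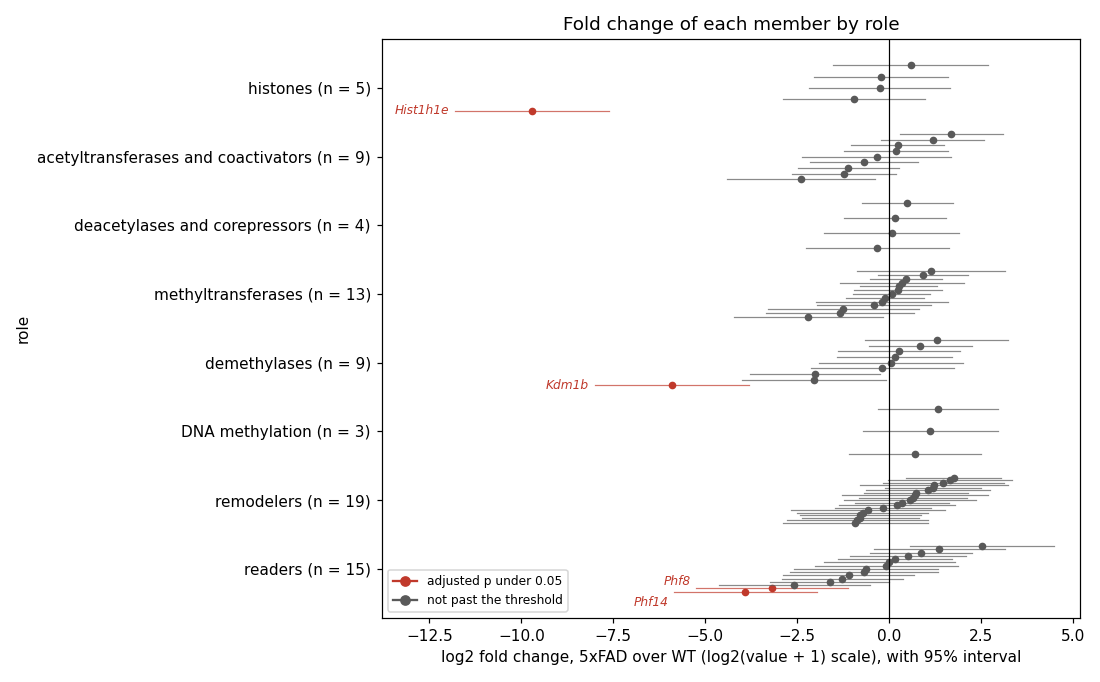
Log2 fold change (5xFAD over WT, log2(value + 1) scale) of each of the 77 members with its 95% interval from limma, grouped by role. Red marks the 4 members with an adjusted p under 0.05, all of them lower in 5xFAD, and the other 73 intervals are grey.

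The promoters are shown for the 4 members that were called lower. Each line is the 250 bases before the RefSeq start (build GRCm38.p6) of the gene, written from 5′ to 3′ on the strand of the gene. Hist1h1e, which RefSeq calls H1f4, is at chr13:23622559-23622808 on the minus strand. Kdm1b is at chr13:47043249-47043498, the first of the RefSeq starts of Phf14 at chr6:11907579-11907828 and Phf8 at chrX:151520422-151520671, all on the plus strand. Capitals mark matches on either strand to any of 4 promoter motifs. The first is the CCAAT box, searched by those letters, and the second is the TATA box, searched as TATAAA. The third is the H1 box known from linker histone promoters, searched as AAACACA and able to overlap the TATA box. The fourth is the GC box, searched as GGGCGG.
Hist1h1e: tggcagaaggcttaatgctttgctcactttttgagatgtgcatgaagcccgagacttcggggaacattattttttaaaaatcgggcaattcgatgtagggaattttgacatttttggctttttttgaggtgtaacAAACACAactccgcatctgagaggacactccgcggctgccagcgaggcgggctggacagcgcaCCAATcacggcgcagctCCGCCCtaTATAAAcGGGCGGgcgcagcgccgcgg
Kdm1b: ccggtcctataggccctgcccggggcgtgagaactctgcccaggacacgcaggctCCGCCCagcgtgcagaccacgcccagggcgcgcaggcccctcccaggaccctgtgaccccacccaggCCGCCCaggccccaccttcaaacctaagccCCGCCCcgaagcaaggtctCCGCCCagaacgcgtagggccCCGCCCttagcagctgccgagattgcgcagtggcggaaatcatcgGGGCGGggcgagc
Phf14: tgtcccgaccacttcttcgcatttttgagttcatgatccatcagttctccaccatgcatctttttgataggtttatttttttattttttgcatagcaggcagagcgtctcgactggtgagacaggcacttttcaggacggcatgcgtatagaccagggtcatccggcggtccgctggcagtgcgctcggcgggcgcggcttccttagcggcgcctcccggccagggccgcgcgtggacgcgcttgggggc
Phf8: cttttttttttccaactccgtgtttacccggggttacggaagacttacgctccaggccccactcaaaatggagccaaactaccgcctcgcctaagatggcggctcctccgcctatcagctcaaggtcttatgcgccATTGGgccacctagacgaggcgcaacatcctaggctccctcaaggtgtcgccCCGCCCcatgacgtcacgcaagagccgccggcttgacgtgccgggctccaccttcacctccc
The Hist1h1e window held all 4 motifs, with the H1 box at -115 to -109, the CCAAT box at -52 to -48 and the TATA box at -27 to -22, counted back from the start. The Kdm1b window held 6 GC boxes. The Phf8 window held a CCAAT box and a GC box on the other strand, and the Phf14 window shown held no match. The window of the other RefSeq start of Phf14, at chr6:11925631-11925880, held a GC box at -25 to -20. Over all 32851 RefSeq windows of this length, 33.8% held a CCAAT box, 12.4% a TATA box, 6.25% an H1 box and 32.7% a GC box. Members were matched to RefSeq by symbol or by a synonym, which gave 75 windows of 56 members. In these the shares were 33.3% for the CCAAT box, 6.67% for the TATA box, 6.67% for the H1 box and 70.7% for the GC box. The windows of the other genes tested were not counted apart, so whether the GC box share is particular to members was not tested. A match is a description of the letters and not a binding site.

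Of the histones, which package the DNA, 5 genes were listed. Hist1h1e encodes a replication-dependent linker histone H1 (GRCm38 chromosome 13, 23620629 to 23622558, minus strand). Its normalised count was 0 in each of the 3 5xFAD libraries, against 1288, 452 and 1009 in the WT libraries. All 5xFAD libraries also held more listed genes at 0 than any WT library (86 to 147 in 5xFAD and 25 to 42 in WT), and the part of that excess in this result was not tested. The mean was 0 in 5xFAD and 916 ± 426 in WT (SD, n = 3 each). The genotypes did not overlap, and 0 reads in the 5xFAD libraries stood against 3194 in the WT libraries. With a floor of 3 reads over the 5xFAD group the gene was at least 850-fold lower in 5xFAD, or at least 481-fold without 5xFAD library 1. The fitted log2 difference was -9.71 (SE 1.07, limma adjusted p = 3.82e-16). That SE gives the gene's own spread no weight, and the gene reached the filter through the WT libraries only. With its own spread the gene was also called, at the larger adjusted p given under the processing alternatives. It stayed called with each library left out. Leaving out a 5xFAD library could not move the fitted difference, because all of them were at 0. Of its transcript's 31-base words 34.7% also occur in other genes, mostly the overlapping Hist1h2be (24.5%), so part of its reads cannot be assigned to it with certainty.

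The other 4 histone genes did not pass the test. H3f3a and H3f3b both encode the replacement variant of histone H3 that is deposited outside replication. H3f3a was at 270, 1870 and 228 in 5xFAD and 1883, 220 and 1997 in WT, and H3f3b was at 1469, 1749 and 390 in 5xFAD and 1150, 1457 and 964 in WT. In H3f3a the libraries of either genotype spread over the same low and high levels, and the log2 fold change was -0.95 (limma adjusted p = 0.734). H3f3b had a log2 fold change of -0.23 (limma adjusted p = 0.949). H2afy, which encodes the repressive variant macroH2A, ranged from 370 to 1602 in 5xFAD and from 455 to 1455 in WT. Hist4h4, a replication-dependent H4 gene, had 10.8, 125 and 190 in 5xFAD and 109, 34.4 and 20.3 in WT, a log2 fold change of 0.59 with overlapping libraries (limma adjusted p = 0.877).

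**Figure D2:**
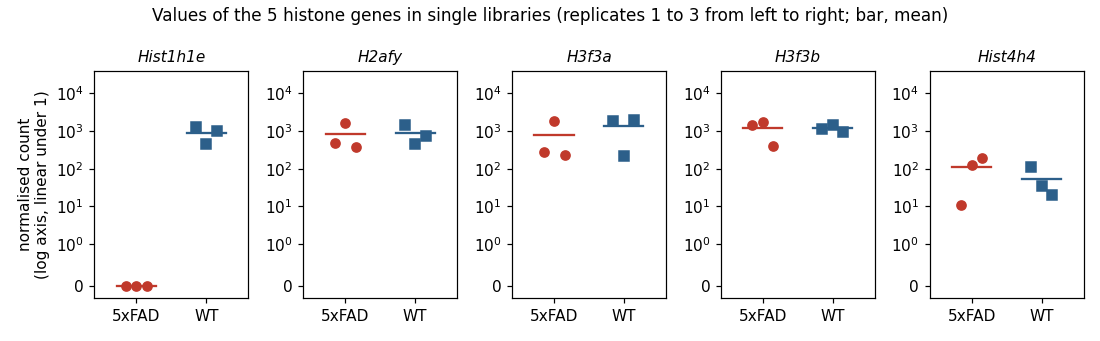
Normalised counts of the 5 listed histone genes in each library, 5xFAD left of WT. Hist1h1e is at 0 in all 3 5xFAD libraries and between 452 and 1288 in the WT libraries, while the libraries of the other 4 genes overlap.

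Demethylases remove methyl groups from histone lysines. Of 9 listed, 1 was lower in 5xFAD and none was called higher, where 4.48% of all genes tested were called lower and 1.88% higher. Roles were assigned by gene symbol, so Phf8, which is also a demethylase, is counted among the readers below. Kdm1b, a flavin-dependent demethylase related to Kdm1a (chromosome 13, 47043499 to 47085279, plus strand), was at 1.66, 13.4 and 6.63 in 5xFAD and 389, 160 and 997 in WT. All 5xFAD libraries lay below all WT libraries, with means of 7.22 ± 5.88 in 5xFAD and 515 ± 433 in WT (SD, n = 3 each). The recovered reads were 2, 11 and 5 in 5xFAD against 473, 172 and 1127 in WT. The log2 fold change was -5.90 (SE 1.07, 95% interval -8.00 to -3.80, limma adjusted p = 2.65e-06). It ranged from -6.56 without WT library 2 to -5.24 without WT library 3 or 5xFAD library 1, and it was called each time. The transcript shares 8.56% of its 31-base words with Dek, which overlaps it on the opposite strand. Kdm1a, the related demethylase, was at 4095, 2211 and 1075 in 5xFAD and 1056, 1827 and 2870 in WT and overlapped (log2 fold change 0.27). Kdm1a, Kdm6b and Kdm2b are named here after their values were seen.

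Kdm5b and Kdm6b had the next largest negative values in this group, and neither passed the test. Kdm5b, which removes methyl groups from lysine 4 of histone H3, was at 104, 196 and 885 in 5xFAD and 774, 1803 and 920 in WT, a log2 fold change of -2.05 (limma adjusted p = 0.268). Kdm6b, a demethylase that opposes Polycomb marks, was at 797, 180 and 2006 in 5xFAD and 2743, 1573 and 4458 in WT, a log2 fold change of -2.02 (limma adjusted p = 0.198). Both genes overlapped between genotypes through 1 5xFAD library. Kdm2a and Kdm2b, CpG-binding demethylases, had log2 fold changes of 0.85 and 1.29 with overlapping libraries (limma adjusted p = 0.629 and 0.593).

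Readers bind marked histones. Of 15 listed, 6 had positive and 9 negative fold changes with a median of -0.63, beside -0.02 over all genes tested, and 2 were lower in 5xFAD, where 4.48% of all genes tested were. Phf14, a PHD finger protein that binds histone H3 (chromosome 6, 11907809 to 12081205, plus strand), was at 100, 550 and 65.0 in 5xFAD and 908, 1384 and 9946 in WT. The genotypes did not overlap, and WT library 3 stood far above the other WT libraries. The means were 238 ± 270 in 5xFAD and 4079 ± 5087 in WT (SD, n = 3 each). The log2 fold change was -3.91 (SE 0.99, 95% interval -5.86 to -1.96, limma adjusted p = 0.00227). Without WT library 3 it was -2.86 and no longer called (limma adjusted p = 0.163). Without WT library 1 it was -4.59, without 5xFAD library 2 -4.83 and without 5xFAD library 3 -3.30, and it was called.

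Phf8, a PHD finger protein that is itself a histone demethylase (chromosome X, 151520672 to 151633859, plus strand), was at 25.7, 248 and 51.7 in 5xFAD and 935, 608 and 459 in WT. The libraries did not overlap, with means of 108 ± 122 in 5xFAD and 667 ± 244 in WT (SD, n = 3 each). The log2 fold change was -3.18 (SE 1.05, 95% interval -5.24 to -1.12, limma adjusted p = 0.0401). The call was kept without 5xFAD library 2 (-4.09) but was lost without each of the other 5 libraries, at adjusted p from 0.0712 to 0.261, with -2.48 without 5xFAD library 1.

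Phf10, Phf11c and Phf12 are also named after their values were seen. Phf10, a subunit of a SWI/SNF remodeler, was at 3932, 364 and 1674 in 5xFAD and 769, 151 and 108 in WT (log2 fold change 2.52, limma adjusted p = 0.120). Phf12, a Sin3 corepressor partner, was at 2186, 1136 and 752 in 5xFAD and 1003, 6741 and 7953 in WT (log2 fold change -1.62, limma adjusted p = 0.306). The libraries of both genes overlapped. Phf11c was near the detection limit, at 9.95, 6.08 and 0 in 5xFAD and 5.75, 37.2 and 62.8 in WT (log2 fold change -2.58, limma adjusted p = 0.132). Phf10 was called without 5xFAD library 2 (limma adjusted p = 0.0314) and Phf11c without WT library 1 (limma adjusted p = 0.0339). Cbx5, a heterochromatin protein, spread from 669 to 12482 in 5xFAD and from 1415 to 3492 in WT, and it did not pass the test (log2 fold change 0.17, limma adjusted p = 0.954). Its sign was not stable, with 1.19 without 5xFAD library 1 and -0.92 without 5xFAD library 3.

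**Figure D3:**
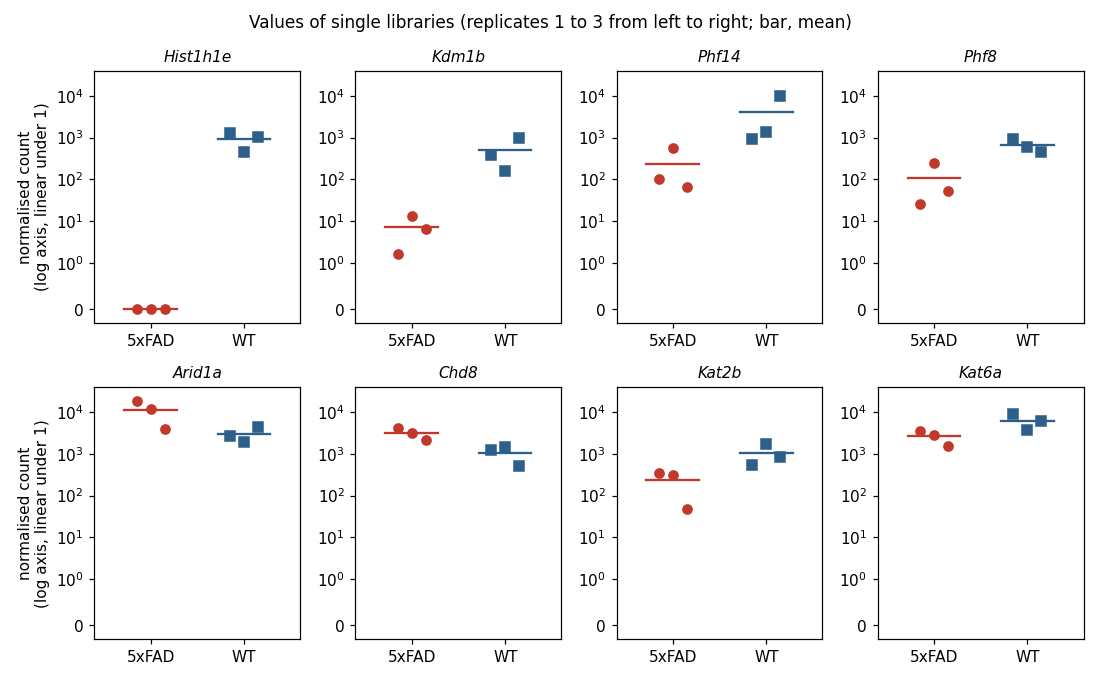
Normalised counts of the members that were called and of further named members in each library, on an axis that is logarithmic above 1 and linear under it, with 5xFAD left of WT and bars at the mean. Hist1h1e, Kdm1b, Phf14, Phf8, Kat2b and Kat6a show 5xFAD libraries below all WT libraries, and Chd8 shows the reverse.

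Acetyltransferases and coactivators open chromatin by adding acetyl groups or by recruiting enzymes that do so. Of 9 listed, 4 had positive and 5 negative fold changes. None was called, where 4.48% of all genes tested were called lower and 1.88% higher. Kat2b, an acetyltransferase of the SAGA and related complexes, was at 351, 311 and 47.8 in 5xFAD and 553, 1717 and 821 in WT. Kat6a, which acetylates histone H3, was at 3592, 2886 and 1512 in 5xFAD and 8954, 3684 and 6121 in WT. For both genes all 5xFAD libraries lay below all WT libraries, at log2 fold changes of -2.40 and -1.23 (limma adjusted p = 0.167 and 0.411). A non-overlap in this direction was found in 6 of 77 members and in 10.1% of all genes tested. Ncoa2, a nuclear receptor coactivator, was at 2258, 9905 and 15610 in 5xFAD and 2721, 1359 and 2825 in WT. It overlapped through 5xFAD library 1, and without that library its log2 fold change of 1.69 became 2.51 and was called (limma adjusted p = 0.0244, against 0.161 with all libraries). Ep300, a broad acetyltransferase and coactivator, was at 5678, 4226 and 9625 in 5xFAD and 5587, 5099 and 4937 in WT, a log2 fold change of 0.24 with overlapping libraries (limma adjusted p = 0.919).

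Deacetylases and corepressors remove acetyl groups or hold the enzymes that do. None of the 4 listed passed the test, where 4.48% of all genes tested were called lower and 1.88% higher. Hdac1, a class I deacetylase, was at 555, 3913 and 589 in 5xFAD and 1247, 556 and 1598 in WT, with a log2 fold change of 0.07. It shares 40.0% of its 31-base words with other genes. Ncor1, a nuclear receptor corepressor, and Sirt2, a deacetylase that acts largely on cytoplasmic proteins, had log2 fold changes of 0.16 and -0.32. The libraries of all 4 genes overlapped.

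Methyltransferases add methyl groups to histones. Of 13 listed, 7 had positive and 6 negative fold changes. None was called, where 4.48% of all genes tested were called lower and 1.88% higher. Ezh2, a catalytic subunit of a Polycomb repressive complex, was at 94.6, 460 and 75.6 in 5xFAD and 1338, 342 and 715 in WT. The genotypes overlapped through 5xFAD library 2, and the log2 fold change was -2.20 (95% interval -4.23 to -0.18, unadjusted p = 0.0332, limma adjusted p = 0.239). Without 5xFAD library 2 it was -3.01 and still not called (limma adjusted p = 0.102). The large MLL-family enzymes that mark enhancers, Kmt2c and Kmt2d, had high counts, but the intervals of their fold changes were wide. Kmt2c was at 6752, 11296 and 18448 in 5xFAD and 5873, 10463 and 13401 in WT, a log2 fold change of 0.26 (95% interval -0.78 to 1.30). Kmt2d was at 19652, 8041 and 16979 in 5xFAD and 11041, 15243 and 6114 in WT, a log2 fold change of 0.46 (95% interval -0.53 to 1.45). Setd3, whose known substrate is actin rather than a histone, had a log2 fold change of -1.33 (limma adjusted p = 0.598).

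The 3 listed genes of DNA methylation all had positive log2 fold changes and none passed the test. Of all genes tested 49.3% had positive fold changes, 4.48% were called lower and 1.88% higher. Dnmt1, which copies methylation after replication, was at 614, 2706 and 2274 in 5xFAD and 1030, 577 and 613 in WT (1.12, limma adjusted p = 0.624). Dnmt3a, which sets methylation anew, was at 2589, 1678 and 7394 in 5xFAD and 2723, 736 and 1017 in WT (1.33, limma adjusted p = 0.460). Tet1, which oxidises methylcytosine, was at 1118, 3200 and 986 in 5xFAD and 1144, 1461 and 486 in WT (0.71, limma adjusted p = 0.801). The libraries of all 3 genes overlapped.

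Remodelers move or evict histone cores. Of 19 listed, 12 had positive and 7 negative fold changes with a median of 0.57, beside -0.02 over all genes tested. Of all genes tested 49.3% had positive fold changes. None of the 19 was called, where 4.48% of all genes tested were called lower and 1.88% higher. Arid1a, a DNA-binding SWI/SNF subunit, was at 18934, 11593 and 4031 in 5xFAD and 2727, 1898 and 4424 in WT. It overlapped because 5xFAD library 3 lay below WT library 3, and its log2 fold change was 1.76 (SE 0.66, 95% interval 0.47 to 3.05, limma adjusted p = 0.0900). Without 5xFAD library 3 it was 2.38 and called (limma adjusted p = 0.0114). Chd8, a CHD-family ATPase, was at 4117, 3203 and 2197 in 5xFAD and 1215, 1483 and 526 in WT, and it was the 1 member whose 5xFAD libraries all lay above the WT libraries, where 7.97% of all genes tested did so. Its log2 fold change was 1.64 (95% interval -0.04 to 3.33, limma adjusted p = 0.328). Ino80d, a subunit of the INO80 remodeler, was at 15304, 2924 and 5014 in 5xFAD and 5144, 4541 and 4544 in WT (0.36, limma adjusted p = 0.877).

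**Figure D4:**
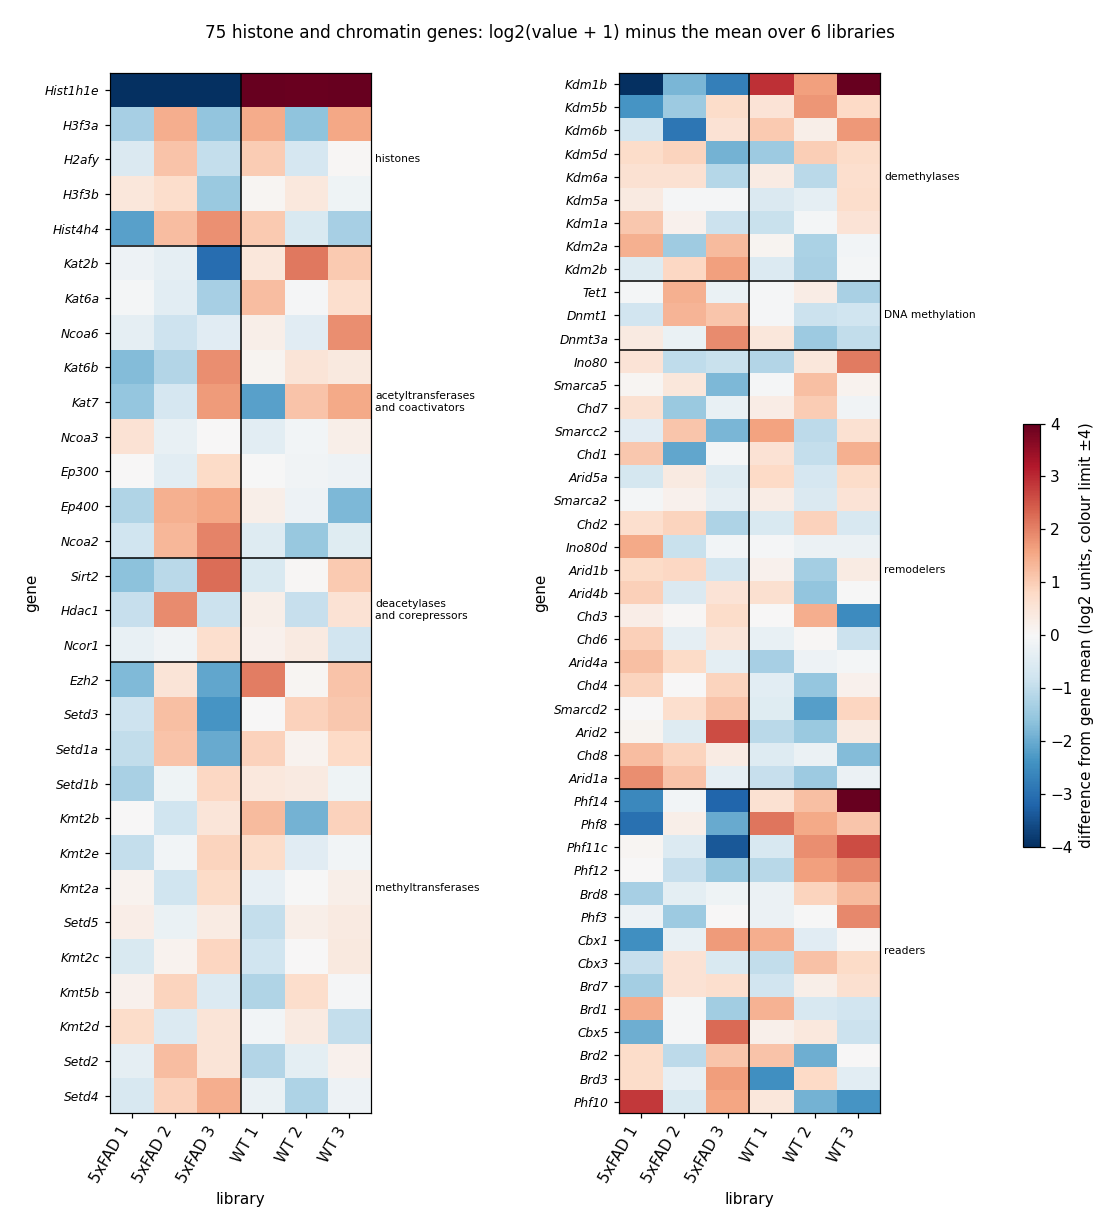
The plot shows 75 of the 77 members in each library as log2(value + 1) minus the mean of that member over the 6 libraries, with 5xFAD columns left of WT columns and members grouped by role. Hist1h1e, Kdm1b, Phf14 and Kat2b are among the members below their mean in all 5xFAD columns and above it in all WT columns. Colours stop at 4 log2 units on either side.

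Other chromatin genes, taken from 8 lists of complex partners and histone supply, numbered 71 listed of 226 symbols. Of these 71, 1 was higher in 5xFAD and 4 were lower, where 1.88% of all genes tested were called higher and 4.48% lower. The median log2 fold change was -0.22, beside -0.02 over all genes tested. Of the 5 called, Riox2 reached the filter of a mean of at least 10 through the 5xFAD libraries only, and Banf1 and Hmgn3 through the WT libraries only, so each passed through the genotype in which it was high. Riox2, a ribosomal oxygenase, was at 39.0, 58.4 and 243 in 5xFAD and 0.822, 14.9 and 7.96 in WT (log2 fold change 3.71, limma adjusted p = 0.0107). That call was lost without WT library 1 (2.80, limma adjusted p = 0.192) and without 5xFAD library 3 (2.93, limma adjusted p = 0.162), and the value was 4.37 without WT library 2. Wdr5, a core subunit of MLL complexes, was at 24.9, 45.0 and 5.31 in 5xFAD and 245, 413 and 68.1 in WT (log2 fold change -3.29, limma adjusted p = 0.0357). That call was lost without WT library 1 or 2 or without 5xFAD library 1 or 3, at adjusted p of 0.0659 to 0.301, with values from -2.47 without 5xFAD library 3 to -4.03 without WT library 3. Cxxc5, a CXXC zinc finger protein, was at 4.98, 64.4 and 98.2 in 5xFAD and 544, 935 and 657 in WT (log2 fold change -4.36, limma adjusted p = 0.00121), and without 5xFAD library 1 it was -3.11 and not called (limma adjusted p = 0.107). Banf1, a DNA-bridging protein of the nuclear envelope, was at 4.98, 0 and 0 in 5xFAD and 53.4, 193 and 12.4 in WT (log2 fold change -4.84, limma adjusted p = 0.000139), with -3.89 without WT library 2, -5.82 without WT library 3 and -5.70 without 5xFAD library 1. Hmgn3, a nucleosome-binding protein, was at 0 in all 5xFAD libraries and 14.8, 33.5 and 72.5 in WT, at least 37.3-fold lower on 136 WT reads and at least 21.2-fold without 5xFAD library 1 or 22.4-fold without WT library 3 (limma adjusted p = 3.80e-05).

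Histone synthesis is tied to the cell cycle. Of 24 proliferation genes 4 were listed and 3 tested, and 2 were lower in 5xFAD, where 4.48% of all genes tested were. Both reached the filter through the WT libraries only. Birc5, an inhibitor of apoptosis that acts in cell division, was at 69.7, 153 and 18.6 in 5xFAD and 84.6, 102 and 95.5 in WT, overlapped and did not pass the test (log2 fold change -0.67, limma adjusted p = 0.854). Mcm5, a subunit of the replicative helicase, was at 13.3, 2.43 and 5.31 in 5xFAD and 80.5, 76.2 and 50.4 in WT (log2 fold change -3.34, limma adjusted p = 0.0291). Rrm1, the large subunit of ribonucleotide reductase, was at 0, 6.08 and 0 in 5xFAD and 12.3, 147 and 88.5 in WT (log2 fold change -4.87, limma adjusted p = 0.000131). For both genes all 5xFAD libraries lay below all WT libraries. The log2 fold change of Rrm1 was -5.90 without WT library 1, -4.17 without WT library 2 and -5.81 without 5xFAD library 2, and it was called each time. The Mcm5 call was lost without WT library 1 or 2 or without 5xFAD library 2 or 3 (limma adjusted p of 0.0721 to 0.165), and also with edgeR (adjusted p = 0.0759 under TMM).

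Levels per kilobase were taken over all annotated exons of a gene, to set the members beside each other. Whether reads scale with that length in these amplified libraries was not tested. In 5xFAD the highest were Arid1a at 1004 per kilobase, Kmt2e at 1003 and Chd4 at 997, and in WT Phf12 at 1066, Kmt2e at 1011 and Ncoa6 at 804. Arid1a was at 263 per kilobase in WT and Phf12 at 277 in 5xFAD. Members of higher level more often had positive fold changes: of the 38 with the higher mean values 27 were positive, and of the 39 with the lower 14 were. Over all genes tested 1082 of 2076 and 967 of 2076 were positive. Spearman's correlation between mean value and log2 fold change across genes was 0.39 in the members and 0.0761 over all 4152 genes tested. Genes share libraries and are not independent replicates, and level and exon length went together in the members (Spearman 0.615), so these values are descriptions only.

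**Figure D5:**
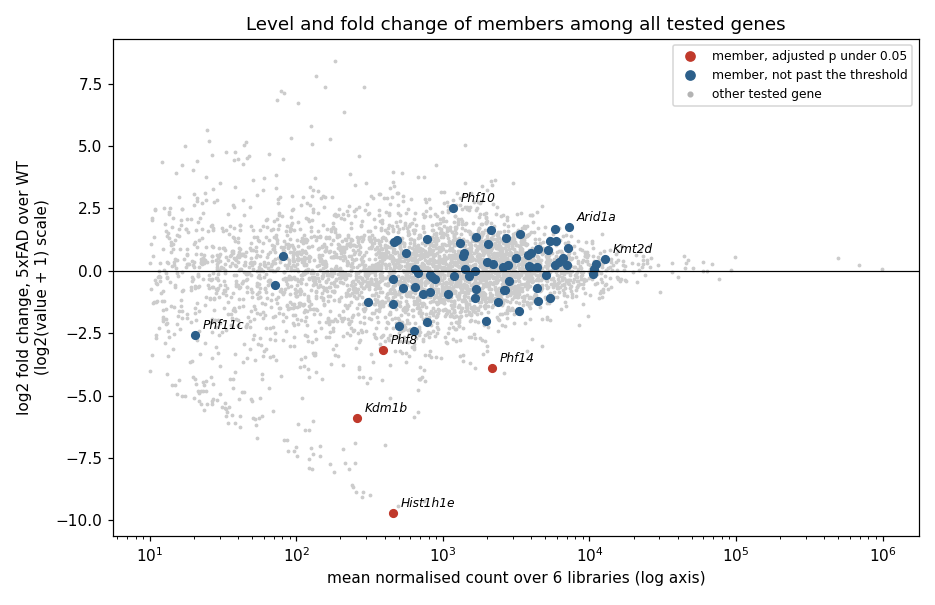
Log2 fold change (5xFAD over WT) against mean normalised count, on a logarithmic axis, for the 77 members over all genes tested. Among the 38 members of higher level 27 are positive, and among the 39 of lower level 14 are.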

How the data were processed

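RNA sequencing was run on 3 5xFAD and 3 WT libraries. Per the labels' protocols, a PicoPure extraction was followed by linear amplification of the RNA. The submitters' processing notes list FastQC, Trimmomatic, Salmon, DESeq2 and mm10, without versions. The deposited signal is gene counts divided by 1 factor per library, and whole reads were recovered from all values (100% within 1e-06). The depth of the full libraries is unknown. Counting error is only a part of the spread after amplification.

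Genes with a mean of at least 10 (4152 of 4233, all 77 members) were tested with limma 3.58.1 in R 4.3.3 on log2(value + 1), two-sided, with Benjamini-Hochberg adjustment over all genes tested. The prior degrees of freedom were infinite, so each gene's own spread had no weight. The filter was passed by Hist1h1e, Kdm1b and Phf11c through WT only. Members and lists were chosen with earlier results of these data known. Named genes were the members called, those without reads in a genotype, per role the 2 of highest mean and the 2 of largest absolute fold change, up to 10 further members whose genotypes did not overlap, and called genes of the other lists. Kdm1a, Kdm2b, Kdm6b, Phf10, Phf11c, Phf12, Birc5, Kmt2e, Chd4 and Ncoa6 were named after their values were seen. Sequences are from RefSeq and positions from GENCODE M21. Replicate numbers did not pair libraries (correlations 0.00247, -0.0157 and -0.0126). Alternatives used edgeR 4.0.16, DESeq2 1.42.0, voom and other filters and scalings. Certain members are counted in the totals but not reported by name here.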

Additional observations from a re-analysis of the deposited data

How the results depend on the processing

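No member was called higher in the limma fit described above. There was 1 (Arid1a) with library weights, with edgeR under TMM or the size factors of the table, and at an adjusted p under 0.1, and 0 to 1 with each library left out. Lower members numbered 4, against 1 (Hist1h1e) with each gene's own spread and 2 (Kdm1b and Phf14) among genes with a read in every library, a choice made after seeing the data, and 2 to 4 with each library left out. Of the other chromatin genes 1 was higher, against 0 with each gene's own spread and 0 to 1 with a library left out. There were 4 lower, against 2 at a mean of at least 50, 0 with own spread, 1 among genes with a read in every library, and 2 to 4 with a library left out. Banf1 and Hmgn3 were removed by the filter at a mean of at least 50 and among genes with a read in every library, so they could not be called there. With own spread the adjusted p was 0.0149 for Hist1h1e, 0.183 for Kdm1b, 0.463 for Phf14 and 0.416 for Phf8, and 3 genes were called higher and 13 lower over all genes. Phf8 was also lost with a pseudocount of 10, a mean of at least 50, quantile normalisation and edgeR, and was not called among genes with a read in every library. Mcm5 was lost with own spread (adjusted p = 0.208), quantile normalisation (0.0917), both edgeR fits (0.0759 and 0.0802) and among genes with a read in every library (0.0680), and Wdr5 with own spread (0.446), quantile normalisation (0.0709) and among genes with a read in every library (0.0757). Rrm1, Riox2, Cxxc5, Banf1 and Hmgn3 were lost with own spread. The replicate block gave 0 higher and 4 lower members. None of the 4 called members changed sign under any of the 23 alternatives that could be run. Hist1h1e, Hmgn3, Banf1 and Rrm1 could not be fitted among genes with a read in every library. Hmgn3, Banf1, Rrm1 and Mcm5 could not be fitted at a mean of at least 50, nor Hmgn3 without WT library 3. The cause was not tested.

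The deposited table holds part of each library, so a count of 0 limits only reads of listed genes, and 3 libraries per genotype leave wide intervals.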

Other observations

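The members' spread between libraries was close to that of all listed genes in 5xFAD and narrower in WT. The median SD of log2(reads + 1) was 1.12 in 5xFAD and 0.807 in WT for the members, beside 1.08 in 5xFAD and 0.961 in WT over all listed genes. The 5xFAD SD exceeded the WT SD in 48 of 77 members (62.3%), beside 56.4% of all genes tested. The sign of the log2 fold change never changed over 23 other settings in 46 of 77 members.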
